A study of Mus musculus with 2 samples.

Results

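Genes of fluid transport, 7 in all, were followed in single pseudoblastocysts, cavitated mouse embryos grown from zygotes or from single blastomeres. They are the Na/K-ATPase beta subunits Atp1b1, Atp1b2 and Atp1b3 and the aquaporins Aqp3, Aqp8, Aqp9 and Aqp11, that is 7 of the 52366 genes in the deposited count table. They were chosen by name as members of 2 families that take part in cavity formation, with earlier results of these data known. The table gives transcripts counted by unique molecular identifier (UMI) for 24 embryos taken at 96 h postinsemination (hpi), 6 from each of 4 sources. 1C embryos were zygotes freed of the zona pellucida at 5 hpi, 2CB embryos came from 1 blastomere of a 2-cell embryo isolated at 24 hpi, and 4CB and 8CB embryos came from 1 blastomere of a 4-cell or an 8-cell embryo isolated at 48 hpi. All were made by in vitro fertilization of oocytes of B6D2F1 females aged 8 to 9 weeks with sperm of ICR males aged 15 to 20 weeks, and no transgene or agent is named for them. Embryos were selected for having a cavity, not for holding an inner cell mass, and the sources used here do not say which of them came from the same parental embryo, so that p-values measure the spread between these embryos.

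The fluid of the blastocyst cavity is moved by the trophectoderm, the outer epithelium of the embryo. The Na/K-ATPase, built of a catalytic alpha and a glycosylated beta subunit, sits on the basolateral side of this epithelium and pumps sodium toward the cavity, and aquaporins are the membrane channels through which water follows. Tight junctions between the trophectoderm cells keep the fluid from leaking back.

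Total UMIs per embryo ranged from 70941 to 1507471. Levels are therefore given as UMIs per 1000000 UMIs of the same embryo (CPM). By the labels, 1C and 8CB embryos were sequenced as 1 library pool of 12 embryos and 2CB and 4CB embryos as another, with the same 12 barcodes in both. Any difference between 2CB or 4CB on one side and 1C or 8CB on the other is also a difference between pools, and stage of origin and pool cannot be told apart in it. Only 8CB against 1C and 4CB against 2CB compare embryos of 1 pool. The 18 trophectoderm markers examined, such as Cdx2, Krt8 and Gata3, summed to 1150 to 1840 CPM in 1C and 8CB embryos and to 4030 to 7780 CPM in 2CB and 4CB embryos. The 11 markers of epiblast and inner cell mass spanned 1220 to 2990 and 1080 to 2970 CPM, and the 11 of primitive endoderm 776 to 1410 and 1310 to 3080 CPM. Of the 12 cumulus and granulosa cell markers, 4 had UMIs in 2CB and 4CB embryos (Inhba, Star, Tnfaip6 and Hsd3b1) and 3 in 1C and 8CB embryos (the same without Hsd3b1). They summed to 12.6 to 166 CPM (median 40.8) and 0 to 56.6 CPM (median 24.6). Amh, Foxl2, Fshr, Inha, Cyp19a1, Cyp11a1, Has2 and Ptx3 had 0 UMIs in all embryos. The summed blood markers did not exceed 8.75 CPM. The labels also mention capture of cells on a Fluidigm C1, whereas the study describes RNA of single embryos, and each column of the table is taken here as 1 embryo. On that reading, fewer cells of a type and less RNA per cell cannot be told apart.

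The sequence just before the start site is shown as context for 3 members, Atp1b1 and Aqp8, which were both higher in 2CB and 4CB embryos, and Aqp3, which was present in every embryo. Motifs were not tested against levels. The windows are the 250 bases before the RefSeq start site in GRCm38.p6, written 5′ to 3′ on the strand of the gene, at chr1:164458356-164458605 on the minus strand for Atp1b1, chr7:123462044-123462293 on the plus strand for Aqp8 and chr4:41098184-41098433 on the minus strand for Aqp3. Capitals mark matches on either strand to TATAAA, called the TATA box, to the CCAAT box, to GGGCGG, called the GC box, to CATTCC, bound by TEAD factors, to AGATAA, bound by GATA factors, or to GCCNNNGGC, bound by AP-2 factors.
Atp1b1: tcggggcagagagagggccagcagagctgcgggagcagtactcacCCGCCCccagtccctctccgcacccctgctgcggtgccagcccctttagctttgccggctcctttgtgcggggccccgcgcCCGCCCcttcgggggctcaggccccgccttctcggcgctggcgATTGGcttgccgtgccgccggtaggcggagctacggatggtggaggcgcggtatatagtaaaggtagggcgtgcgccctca
Aqp8: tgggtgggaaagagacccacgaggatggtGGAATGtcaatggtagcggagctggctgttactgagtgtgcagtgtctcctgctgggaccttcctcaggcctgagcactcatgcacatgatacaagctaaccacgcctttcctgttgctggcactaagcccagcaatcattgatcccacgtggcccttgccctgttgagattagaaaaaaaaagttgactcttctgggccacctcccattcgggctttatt
Aqp3: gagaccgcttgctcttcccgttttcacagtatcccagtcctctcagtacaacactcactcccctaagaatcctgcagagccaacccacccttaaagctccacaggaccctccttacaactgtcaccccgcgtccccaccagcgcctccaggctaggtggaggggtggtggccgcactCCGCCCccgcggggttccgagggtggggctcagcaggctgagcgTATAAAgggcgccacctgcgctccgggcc
The Atp1b1 window, 70.4% GC, held 2 GC boxes starting 205 and 124 bases before the start site and a CCAAT box at 81, all on the opposite strand. The Aqp8 window, 52.4% GC, held none of these and had a TEAD motif on the opposite strand at 221. The Aqp3 window, 64.0% GC, had a TATA box at 29 and a GC box at 73. Of 32851 mouse windows of this length, 32.7% held a GC box, 33.8% a CCAAT box, 12.6% the TEAD motif and 12.4% a TATA box, so that none of these matches was rare. The AGATAA and GCCNNNGGC letters, in 9.99% and 13.7% of all windows, were in none of the 3. RefSeq windows were matched for 6 of the 7 members. Those of Aqp9 and Aqp11 held none of the 6 motifs, and that of Atp1b3 held 5 GC boxes at its first start site.

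Of the beta subunits, Atp1b1 differed between the embryos. It encodes the beta subunit found with the alpha subunit in most epithelia and lies at chr1:164437109-164458355 (GRCm38, minus strand, 7 exons). In 2CB embryos its lowest, median and highest levels were 10.8, 35 and 58.4 CPM, in 4CB embryos 0, 24.7 and 47.8 CPM. In 1C embryos the same values were 0, 2.71 and 13.7 CPM, and in 8CB embryos 0, 3.11 and 12.1 CPM. UMIs were present in 11 of 12 2CB and 4CB embryos, replicate 6 of 4CB being the one at 0, and in 6 of 12 1C and 8CB embryos, none of which had more than 4. The groups overlapped through 2CB replicate 4 and 4CB replicates 2 and 6, the remaining 9 embryos of that pool lying above every 1C and 8CB embryo.

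Over the pools, 245 UMIs of Atp1b1 against 15 gave a CPM ratio of 7.24 (95% interval 4.31 to 13.1, counting error only). With the spread between embryos included, Atp1b1 was higher in 2CB and 4CB than in 1C and 8CB by 2.48 on the log2 scale (SE 0.54, adjusted p = 0.000358, edgeR quasi-likelihood test with Benjamini-Hochberg adjustment over 5940 genes). In this comparison 55.3% of all genes tested were called at an adjusted p below 0.1, 31.3% as higher and 24% as lower, so that being called was common, whereas the 5% to 95% range of the log2 fold changes of all genes, -1.63 to 2.53, just contained the value of Atp1b1. Atp1b1 passed the filter on low counts through its level in 2CB and 4CB embryos. In the fit without a filter the difference was 2.46 (SE 0.51, edgeR adjusted p = 2.84e-05, with 23.8% of 23171 genes called, 14.2% as higher). The summed markers of trophectoderm and of primitive endoderm moved with it, as given above, and their part in the difference was not tested.

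The order of the Atp1b1 means was 2CB at 35 ± 19.7, 4CB at 23.5 ± 18.3, 1C at 4.65 ± 5.74 and 8CB at 4.15 ± 5.01 CPM (SD, n = 6 each). Neighbours within a pool were not distinguishable at full depth: 4CB stood at -0.54 against 2CB on the log2 scale (95% interval -1.74 to 0.65), and 8CB at 0.13 against 1C (-1.79 to 2.05). In 1 random thinning to 70941 UMIs the means of 4CB and 2CB were 18.8 ± 17.1 and 47.1 ± 27.8 CPM (SD, n = 6 each, 8 and 20 UMIs in all, exact permutation test, p = 0.0498). The step between 4CB and 1C was larger than the spread between embryos, at 2.27 (SE 0.78, edgeR adjusted p = 0.0261), as were the other 3 pairs across the pools, whose adjusted p ranged from 0.00449 to 0.0322. In that 1 thinning Atp1b1 kept 8 UMIs in 4CB, 3 in 1C and 1 in 8CB embryos. On these few UMIs the difference of 4CB from 1C was 1.19 and that of 8CB from 4CB was -2.27. Neither was past the threshold (edgeR adjusted p = 0.39 and 0.124). At full depth without 4CB replicate 3 the difference of 8CB from 4CB was -1.77 (edgeR adjusted p = 0.101).

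Atp1b1 shares 575 exon bases with Nme7 on the opposite strand, and the strand setting of the counting is not given in the sources used here. Nme7 had 58 UMIs (8.71 CPM) over 2CB and 4CB embryos and 62 (21.0 CPM) over 1C and 8CB embryos. Whether reads of Nme7 were counted for Atp1b1 was not tested.

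Atp1b3, which encodes a widely expressed beta subunit and lies at chr9:96332655-96364442 (minus strand), was present in all 24 embryos. Its lowest, median and highest levels were 77.9, 111 and 172 CPM in 1C, 48.3, 77.1 and 180 CPM in 2CB, 44.7, 84.1 and 132 CPM in 4CB, and 42.3, 84.7 and 144 CPM in 8CB embryos. All 4 stages overlapped widely. The difference of 2CB and 4CB from 1C and 8CB was -0.25 on the log2 scale (95% interval -0.74 to 0.23, edgeR adjusted p = 0.398), and the pooled ratio was 1.01 (0.888 to 1.16, counting error only).

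Atp1b2, the beta subunit best known from neural tissue, at chr11:69599736-69605942 (minus strand), had 19 UMIs in all. They came from 11 embryos, 2CB embryos giving 7, 4CB embryos 6, 1C embryos 5 and 8CB embryos 1. In the fit without a filter its difference between the pools was 0.49 (95% interval -1.18 to 2.17, edgeR adjusted p = 1), an interval wide enough to hold a change in either direction.

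**Figure D1:**
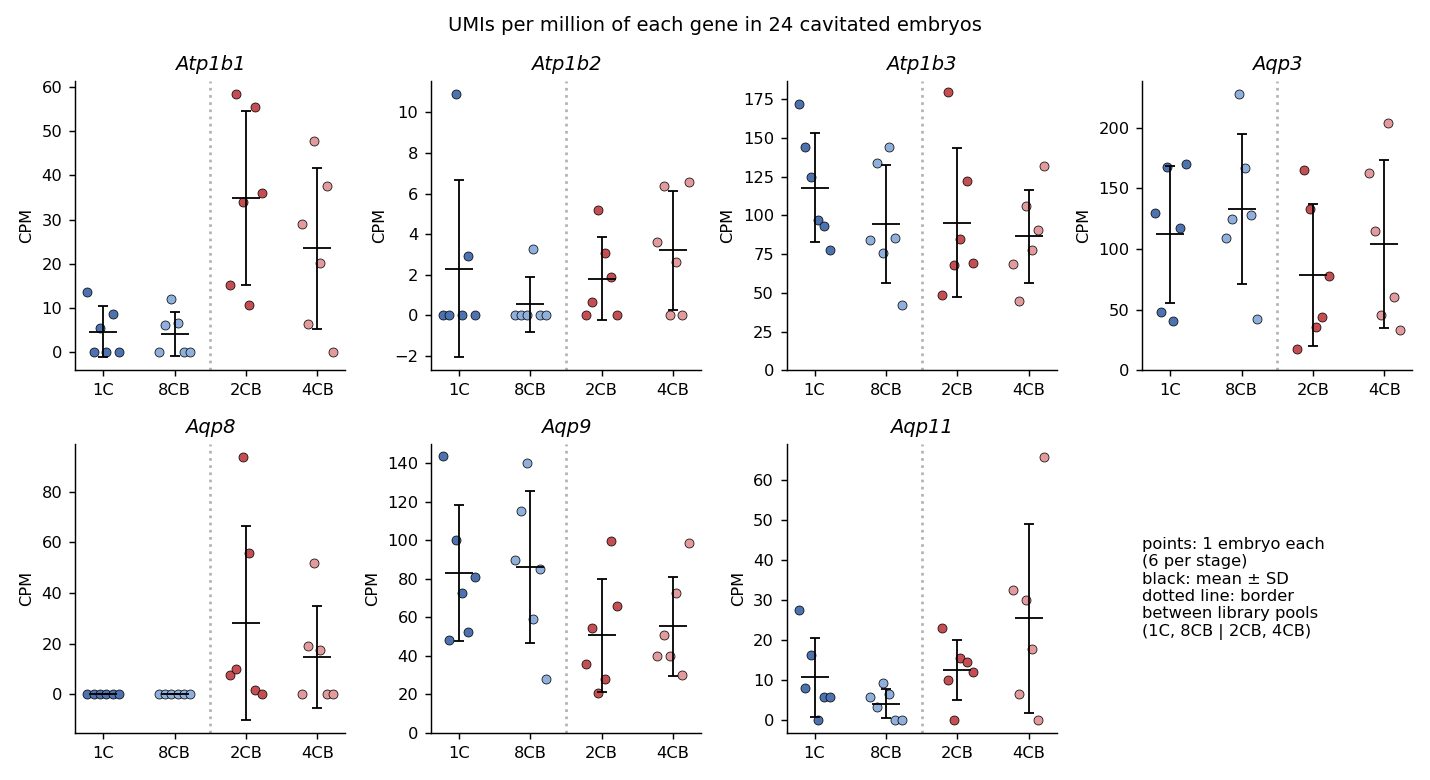
Level of each member in CPM (vertical axis, linear, a scale of its own per gene) in the 24 embryos by stage (horizontal axis). Each point is 1 embryo, black bars show mean ± SD over 6 embryos (a bar can reach below 0, where no value lies) and the dotted line separates the library pools. Atp1b1 lies at 13.7 CPM or below in all 1C and 8CB embryos and reaches 58.4 CPM in 2CB, Aqp8 is at 0 in all 1C and 8CB embryos, and the stages overlap for Atp1b3, Aqp3 and Aqp9.

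The make-up of the beta subunit UMIs within an embryo does not depend on the scaling between embryos. Atp1b1 formed 26.0% ± 8.46 of them in 2CB and 20.1% ± 12.4 in 4CB embryos, against 3.26% ± 3.88 in 1C and 3.75% ± 5.36 in 8CB embryos (SD, n = 6 each). Over 12 against 12 embryos the mean share was 19.5 percentage points higher in 2CB and 4CB (23.1% ± 10.6 against 3.51% ± 4.47, two-sided permutation test with 100000 resamples, p = 4e-05, adjusted p = 0.00024 over 6 tests of shares). Atp1b3 made up most of the remainder in every stage, with 93% of the pooled UMIs of 1C and 94.5% of those of 8CB embryos, and with 73.2% for 2CB and 74.8% for 4CB. Within a pool the share of Atp1b1 differed by 0.484 points between 8CB and 1C (exact permutation test, p = 0.848, adjusted p = 0.848) and by -5.96 points between 4CB and 2CB (exact permutation test, p = 0.355, adjusted p = 0.473).

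Of the aquaporins, Aqp8 had UMIs in embryos of 1 pool only. Aqp8 encodes a channel that passes water and also hydrogen peroxide and ammonia, and lies at chr7:123462291-123468004 (plus strand, 7 exons). The 6 2CB embryos had 3, 15, 36, 36, 2 and 0 UMIs and the 6 4CB embryos 0, 3, 26, 20, 0 and 0, while all 12 1C and 8CB embryos had 0. The UMIs were thus spread unevenly within the pool, with 2CB replicates 3 and 4 at 93.8 and 55.7 CPM, 4CB replicate 3 at 51.8 CPM, and 4 of the 12 embryos at 0. A count of 0 over the 2952530 UMIs of the 1C and 8CB embryos allows a level of up to 1.02 CPM (3 counts over the group), and against this floor the 21.2 CPM of the pooled 2CB and 4CB embryos was at least 20.8-fold higher, a bound that takes the 21.2 CPM without error. With counting error on both sides, the 95% interval of the ratio began at 16.7.

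Aqp8 was detected in 8 of 12 2CB and 4CB embryos and in 0 of 12 others (two-sided Fisher's exact test over embryos, p = 0.00135). After every embryo had been thinned to 70941 UMIs, the lowest total, it was detected in 6 of 12 and 0 of 12 (Fisher's exact test, p = 0.0137). It did not pass the filter on low counts, and in the fit without one it was called as higher in 2CB and 4CB embryos (edgeR adjusted p = 6.56e-10), where 23.8% of 23171 genes were called, 14.2% as higher. Its biological coefficient of variation in that fit was 1.05, near the median of all genes in it, 1.06, a median over all genes with any UMI. Every other member had a lower value in the same fit, from 0.406 for Atp1b3 to 0.915 for Atp1b2. Among the genes that passed the filter, in their own fit, the median was 0.417. For Aqp8 the difference of 4CB from 2CB was -0.80 on the log2 scale (95% interval -2.08 to 0.48). The summed markers of trophectoderm and of primitive endoderm both moved with the difference between the pools, as given above. Those of primitive endoderm were 3040, 3080 and 2440 CPM in 2CB replicates 3 and 4 and 4CB replicate 3. In the 4 embryos of this pool without Aqp8 they were 1830, 1650, 1550 and 1880 CPM. The rest ran from 1310 (2CB replicate 1) to 2620 CPM (2CB replicate 2). Those of trophectoderm were 7090, 5940 and 6370 CPM in the first 3 and 6890, 7780, 7030 and 4030 CPM in the 4 without Aqp8. The part of either set of markers was not tested.

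Aqp9, an aquaglyceroporin that passes glycerol and other small solutes besides water, went the other way. It lies at chr9:71110659-71168682 (minus strand) and was present in all 24 embryos. Its lowest, median and highest levels were 48.1, 76.8 and 144 CPM in 1C and 28.2, 87.5 and 140 CPM in 8CB, and 20.9, 45.0 and 99.5 CPM in 2CB and 30.1, 45.5 and 98.8 CPM in 4CB embryos. The ranges overlapped in each pair of stages. Across the pools Aqp9 was lower in 2CB and 4CB, with a log2 fold change of -0.73 (SE 0.28, edgeR adjusted p = 0.0314), with means of 53.0 ± 26.4 against 84.6 ± 35.9 CPM (SD, n = 12 each). No single pair of stages was past the threshold, the closest being 8CB against 2CB at 0.83 (SE 0.38, edgeR adjusted p = 0.102). At equal depth the difference across the pools was -0.52, with an edgeR adjusted p of 0.272.

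Aqp3, also an aquaglyceroporin, at chr4:41092722-41098183 (minus strand, 6 exons), varied widely among embryos of the same stage. It was present in all 24 embryos, with lowest, median and highest levels of 40.5, 124 and 170 CPM in 1C, 17.8, 61.1 and 165 CPM in 2CB, 32.9, 87.6 and 204 CPM in 4CB and 42.3, 126 and 228 CPM in 8CB embryos. The coefficient of variation over the 6 embryos was 46.3% to 74.3% in the 4 stages, against 29.9% to 50.6% for Atp1b3. The difference of 2CB and 4CB from 1C and 8CB was -0.49 on the log2 scale (95% interval -1.19 to 0.20, edgeR adjusted p = 0.237), not beyond the spread between embryos.

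Aqp11, an aquaporin that resides largely in the endoplasmic reticulum, at chr7:97724006-97738289 (minus strand, 3 exons), had 131 UMIs in all. Its lowest, median and highest levels were 0, 6.92 and 27.4 CPM in 1C, 0, 13.2 and 22.9 CPM in 2CB, 0, 23.8 and 65.9 CPM in 4CB and 0, 4.36 and 9.11 CPM in 8CB embryos. Every stage had at least 1 embryo at 0, and all ranges overlapped. The mean was 18.9 ± 18.0 CPM in 2CB and 4CB embryos and 7.31 ± 7.84 CPM in 1C and 8CB embryos (SD, n = 12 each). Without a filter, which Aqp11 did not pass, the difference was 1.19 on the log2 scale (SE 0.54, edgeR adjusted p = 0.11), short of the threshold. It passed the threshold after thinning (2.04, adjusted p = 0.0557), with the replicate block (1.24, 0.095), with DESeq2 (1.30, 0.0493) or its size factors (1.27, 0.0784), and without any of 6 single embryos, and a two-sided permutation test of the mean CPM with 100000 resamples gave p = 0.0372. The widest gap between stages was between 4CB and 8CB, where 8CB stood at -2.06 (SE 0.79, edgeR adjusted p = 0.0771, 13.6% of 23171 genes called). This call was lost without any of 5 single embryos (4CB replicates 1, 3 and 6 and 8CB replicates 2 and 5), with values from -2.05 to -1.75, and after thinning.

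**Figure D2:**
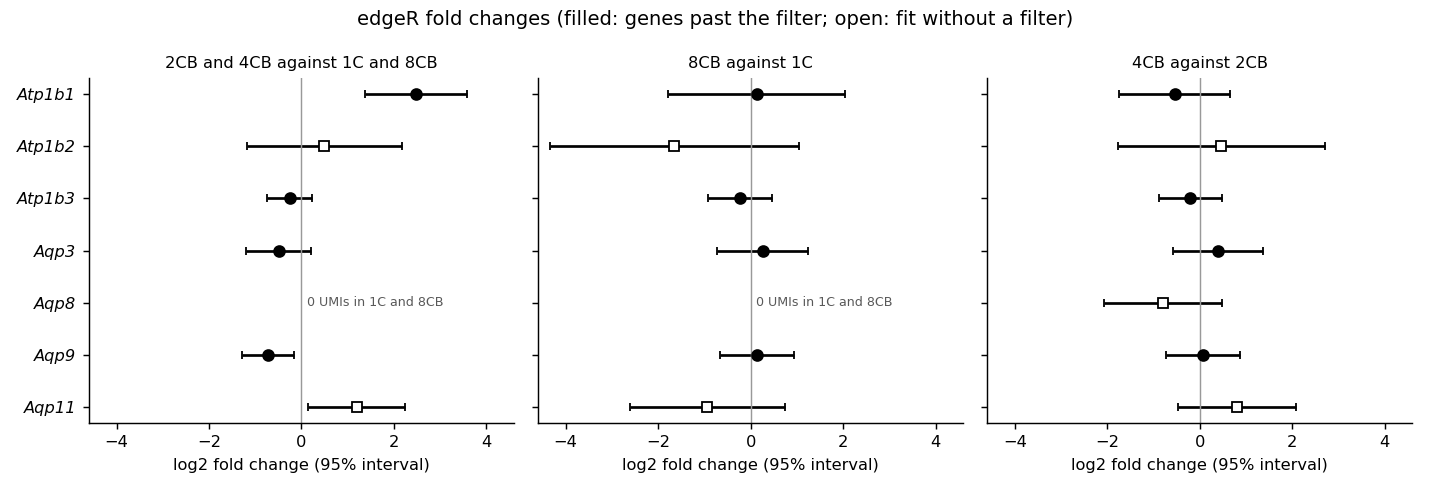
Log2 fold change of each member (horizontal axis) with its 95% interval in 3 comparisons fitted by edgeR, filled circles for the 4 members that passed the filter and open squares for those fitted without a filter. Only the comparison across the library pools has intervals clear of 0, for Atp1b1, Aqp9 and Aqp11, and all intervals within a pool include 0. Aqp8, at 0 in 1C and 8CB, is drawn for 4CB against 2CB alone.

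Within the aquaporin UMIs of an embryo, Aqp3 formed 46.1% ± 20.6 in 2CB and 4CB (n = 12) and 55.8% ± 11 in 1C and 8CB embryos (n = 11, SD), 8CB replicate 6 with 5 such UMIs being left out. The difference of -9.72 percentage points was within the spread between embryos (permutation test with 100000 resamples, p = 0.177, adjusted p = 0.473 over the 6 tests of shares). Single 2CB and 4CB embryos differed strongly in make-up. Aqp8 formed 41.4% of the aquaporin UMIs in 2CB replicate 4 and 37.9% in 2CB replicate 3, but 1.20% in 2CB replicate 5, where Aqp3 formed 27.5%. Aqp3 ranged from 16.7% to 69.2% of these UMIs in 4CB and from 21.2% to 69.0% in 2CB embryos.

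**Figure D3:**
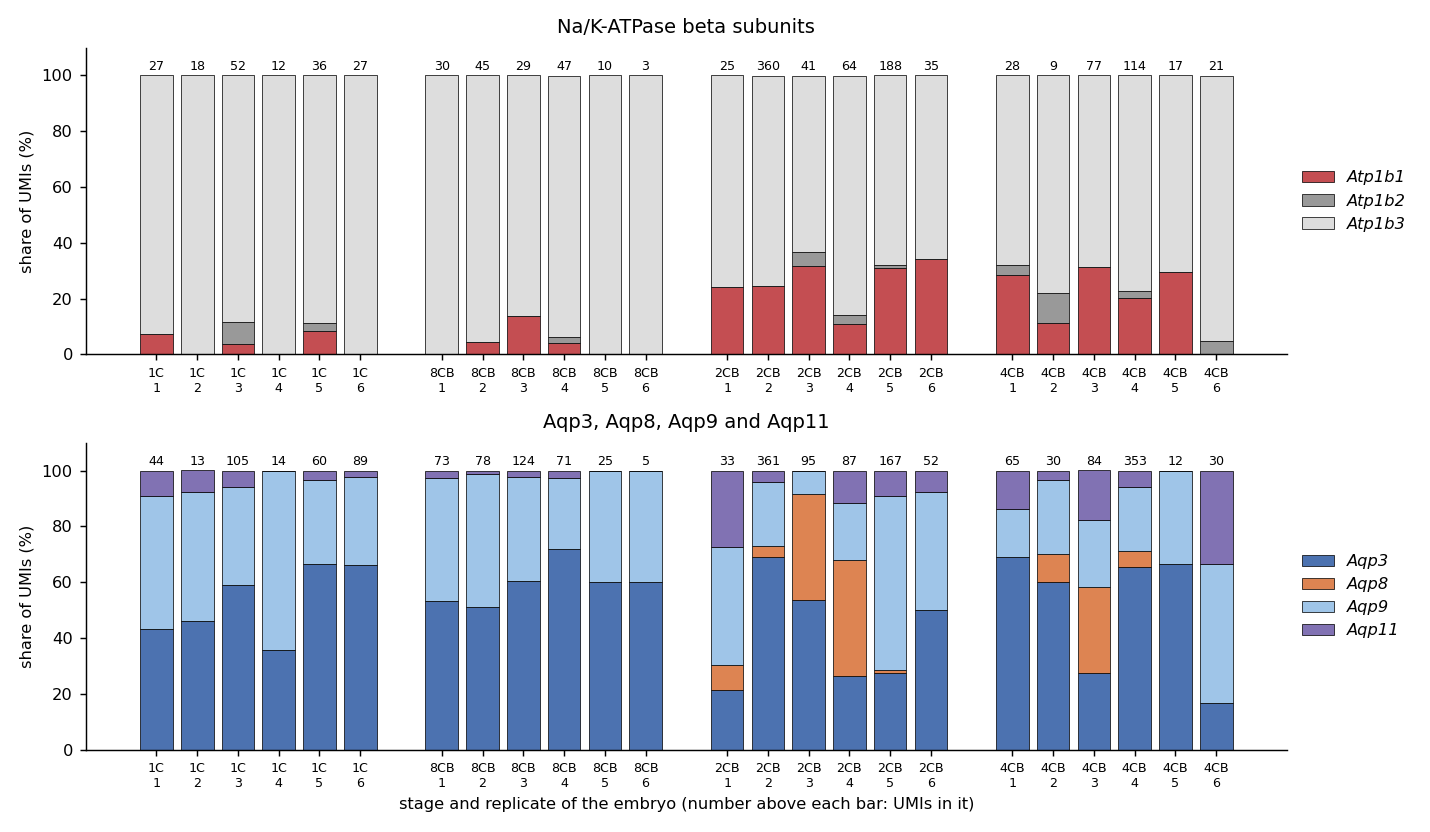
Share in percent (vertical axis) of each beta subunit (upper panel) and of each member aquaporin (lower panel) among the UMIs of that group in each embryo (horizontal axis, stage and replicate), with the number of UMIs above each bar. The Atp1b1 share is at most 13.8% in 1C and 8CB embryos and reaches 34.3% in 2CB, and Aqp8 appears in 8 of the 24 embryos, all of them 2CB or 4CB.

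Counted over the members, 4 of 7 passed the filter: Atp1b1, Atp1b3, Aqp3 and Aqp9. In the test among the 4 stages, where 47.1% of 5940 genes were called, Atp1b1 was called (edgeR adjusted p = 0.00279) and the other 3 were not. Without a filter Atp1b1 and Aqp8 were called among the 4 stages, where 22.4% of all genes were. In the pairs across the pools Atp1b1 was called in all 4, where 41.5% (2CB against 1C), 40.9% (4CB against 1C), 38.4% (8CB against 2CB) and 40.2% (8CB against 4CB) of genes were called. When only the embryos of a pair were fitted, Atp1b1 did not pass the filter in any of these 4 pairs. In the fit of all embryos without a filter it was called in all 4, with edgeR adjusted p from 0.00129 to 0.053, where 15.7%, 14.5%, 13.5% and 13.6% of genes were called in the same order of pairs. Within the pools 0 members were called for 8CB against 1C, where edgeR called 0 of 5940 genes (550 at an unadjusted p below 0.05, and 43 by DESeq2), and 0 for 4CB against 2CB, where it called 2 genes, 0.0337% (263 at an unadjusted p below 0.05, and 10 by DESeq2).

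The genes most like each member were ranked by the correlation of log2 CPM over the 24 embryos after the mean of each stage had been subtracted, over genes that averaged 20 CPM or more. For Atp1b1 these were Hnrnpk (Pearson's r 0.77), an RNA-binding protein, Eif2a (0.75), a translation initiation factor, and Rtn4 (0.74), a protein that shapes the endoplasmic reticulum. For Atp1b3 they were Rad21 (0.82), a cohesin subunit, Polr1d (0.78), a subunit of RNA polymerases, and Mesd (0.74). For Aqp3 they were Prps1 (0.77), Ubfd1 (0.75) and Necap1 (0.75), and for Aqp9 Bcap31 (0.78), Lmbrd1 (0.78) and Pqlc1 (0.75). These are the highest of over 5000 values for each member, the embryos of a pool share a library, and their depths differ widely. Between the 4 members themselves the correlations ran from 0.14 for Aqp9 with Atp1b1 to 0.48 for Aqp3 with Atp1b1.

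The other genes of cavity formation were taken from 5 lists. Among the genes for other subunits of the pump and of related pumps, Atp12a, the catalytic subunit of the nongastric proton-potassium pump, was at 0 in all 1C embryos and averaged 2.94 ± 3.12 CPM in 8CB, against 41.6 ± 39.8 CPM for 2CB and 57.7 ± 26.4 CPM for 4CB embryos (SD, n = 6 each, edgeR adjusted p = 1.94e-16 in the fit without a filter). Like Atp1b1, it passed the filter through 2CB and 4CB embryos, as did Slc9a3r1, Slc9a3r2, Clic1, Wnk2 and Src among the genes named next, so that the counts and medians over genes that passed are descriptions only.

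Of 8 other aquaporins, 4 had any UMI and 0 passed the filter. Without a filter 1 of them was called as higher in 2CB and 4CB embryos (edgeR), Aqp7, an aquaglyceroporin named here after its values were seen, with 25 UMIs and means of 0, 3.52, 9.12 and 0.934 CPM in 1C, 2CB, 4CB and 8CB embryos. In that fit 23.8% of all genes were called, 14.2% as higher.

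Genes for sodium entry, proton exchange and chloride and bicarbonate transport went in both directions. Of 35 listed, 10 passed the filter, 5 were higher and 3 lower in 2CB and 4CB embryos, where 31.3% of all genes were higher and 24% lower, and the median log2 fold change was 0.51, where that of all genes was 0.12. The largest increases by edgeR were those of Slc9a3r1 (4.20, SE 0.413) and Slc9a3r2 (2.63, SE 0.623), scaffold proteins of sodium-proton exchangers, and Clic1 (2.42, SE 0.543). Slc12a2, the sodium-potassium-chloride cotransporter, was lower, at -2.94 (SE 0.278), with means of 358 ± 132 and 207 CPM in 1C and 8CB and 28.6 ± 11.6 and 46.1 ± 27.5 CPM in 2CB and 4CB embryos. Slc4a11 (-1.47, SE 0.337) and Slc12a7 (-1.17, SE 0.358) were lower as well.

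Of 22 kinases and other regulators of pump and transporters, 16 passed the filter, 10 were higher and 4 lower, where 31.3% of all genes were higher and 24% lower, with a median log2 fold change of 0.72. Among these 16, Wnk2 (4.03, SE 0.385), Src (3.08, SE 0.482) and the ubiquitin ligase Nedd4 (2.16, SE 0.539) had the largest increases by edgeR. Sgk3 (-1.58, SE 0.324), Wnk3 (-1.49, SE 0.317) and Cab39 (-1.38, SE 0.194) had the largest decreases among them. The WNK kinases, which control cation-chloride cotransporters, thus had members on both sides.

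Of 18 genes of the tight junction seal, 11 passed the filter, 8 were higher and 0 lower, where again 31.3% and 24% of all genes were, with a median log2 fold change of 0.87. Cldn6, a claudin, rose by 2.69 (SE 0.478), from means of 205 and 84.3 CPM in 1C and 8CB to 883 and 866 CPM in 2CB and 4CB embryos. Cdh1, the epithelial cadherin, rose by 1.27 (SE 0.216), both by edgeR. Cldn4 is both in this list and among the trophectoderm markers. Within the pools 0 genes of these lists were called by edgeR among those that passed the filter. Without a filter edgeR called 104 of 23171 genes (0.449%) for 8CB against 1C and 48 (0.207%) for 4CB against 2CB. Of the lists, 1 gene was called lower for 8CB against 1C, Ezr, a membrane-cytoskeleton linker, with means of 11.6 ± 10.9 and 80.3 ± 77 CPM in 8CB and 1C embryos, and 1 for 4CB against 2CB, Slc4a11, with means of 24.7 ± 15.5 and 114 ± 81.9 CPM in 4CB and 2CB embryos. Ezr is named after its values were seen. Across the pools 55.3% of all genes that passed the filter were called, and the differences cannot be told apart from the pool.

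**Figure D4:**
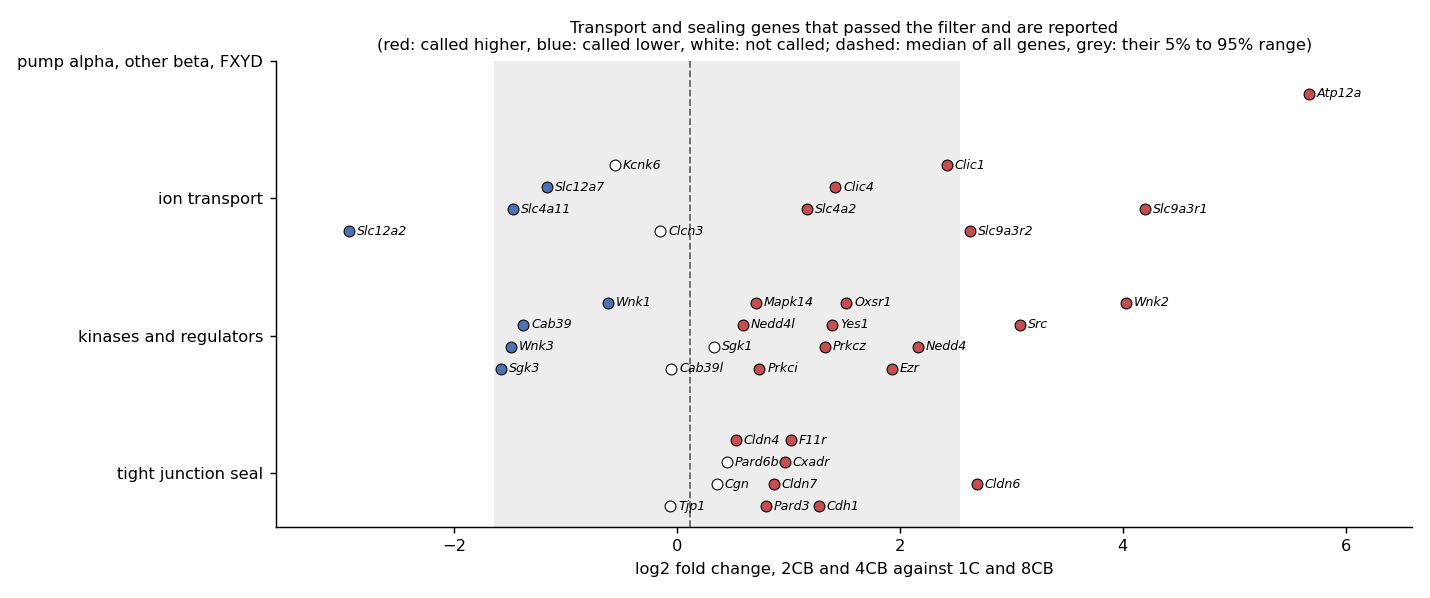
Log2 fold change (horizontal axis) of the genes reported here that passed the filter, from 4 of the lists, in the comparison across the library pools, 1 row per list and 1 point per gene, red where called higher, blue where called lower and white where not called. The dashed line is the median of all 5940 genes, 0.12, and the grey band their 5% to 95% range, -1.63 to 2.53. Ion transport genes lie on both sides of the line, from Slc12a2 at -2.94 to Slc9a3r1 at 4.20, and of the tight junction genes 0 were called lower.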

How the data were processed

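Per the paper's methods and the submitters' processing notes, the authors made CEL-Seq2 libraries, aligned the reads to GRCm38 with HISAT2 2.2.6 and counted UMIs per gene with HTSeq 0.6.1, 1 consensus read per group of duplicates. The deposited values are whole, unnormalized UMI counts. The annotation release, the strand setting and the UMI length are not given in the sources used here. The largest count, 53029, exceeds the 4096 sequences that a 6-base UMI allows, the length of the published protocol, so that with this length the counts are not distinct molecules and the intervals cover counting error only. A further 24 columns of morula embryos were not used.

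Gene identifiers were given symbols from GENCODE M21 (51633 of 52366). The members and lists were chosen with earlier results of these data known. Counts were fitted with edgeR 4.0.16 (TMM, filterByExpr by stage, 1 mean per stage, all 24 embryos, R 4.3.3), and genes were called at a Benjamini-Hochberg adjusted p below 0.1 over all genes tested. Members under the filter were fitted with all genes that had at least 1 UMI, a choice made after seeing the data. Levels in CPM use the raw total of each embryo, and correlations use log2 CPM with a prior count of 2. Shares were compared by two-sided permutation tests with SciPy 1.17.1, exact for 6 against 6 embryos, with at least 10 aquaporin UMIs per embryo. Intervals are 95%. All members, the called genes with the 3 largest changes each way per list and the 3 genes most like each member were named, of which some listed genes are not reported here. Alternatives were DESeq2 1.42.0, its size factors, no filter, a stricter filter (5 UMIs or more in 12 embryos), an adjusted p below 0.05, random thinning to the lowest total (70941), fits of only the embryos compared, a block for replicate number, and fits without each single embryo. Promoter windows came from RefSeq (GRCm38.p6).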

Additional observations from a re-analysis of the deposited data

Results flagged for a closer look

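Of 34 groups of 6 embryos examined (the level of each member per stage and the shares of Atp1b1 and Aqp3), 4 had an embryo whose gap to the next one exceeded the 95% critical value of Dixon's test. For normally distributed values chance gives such a gap in about 1 of 20 groups, a rate that does not hold for members with mostly 0 UMIs, and 1 UMI among 5 embryos at 0 gives it by construction. Aqp8 stood at 51.8 CPM in 4CB replicate 3, where the other 5 embryos lay between 0 and 19.1 CPM. Atp1b2 stood at 10.9 CPM in 1C replicate 3 (4 UMIs), the others being at 2.92 CPM or below. The single UMI of Atp1b2 among 8CB embryos, in replicate 4, gave 3.28 CPM against 0 in the rest. The share of Atp1b1 among beta subunit UMIs was 13.8% in 8CB replicate 3 (4 of 29 UMIs), the others being between 0 and 4.44%.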

How the results depend on the processing

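Atp1b1 and Aqp8 were called across the pools under every alternative that tested them, with Atp1b1 between 2.29 and 2.77 when each embryo was left out. The fitted value of Aqp8, which has 0 UMIs on one side and so is no bound, was 6.07, 3.46 after thinning and 4.62 by DESeq2. The number of members called changed both with how many are tested and with depth. Among the 4 stages it went from 1 (47.1% of all genes called) to 2 without a filter (22.4%) and with thinning without a filter (2582 of 17738 genes). It went to 0 with the stricter filter (2706 of 6247) and with thinning and its own filter (1062 of 2013), which leaves 1 member. Across the pools it was 2 of 4, where 55.3% of all genes were called. It went to 3 of 7 without a filter (23.8%) or with thinning without a filter (3238 of 17738), and to 4 by DESeq2 without a filter (4903 of 23171). It went to 1 with the stricter filter (3217 of 6247) or with thinning on the genes of the full depth (2640 of 5940). It went to 0 with thinning and its own filter (1213 of 2013). Over the 4 pairs across the pools it went from 4 (38.4% to 41.5% of all genes called per pair) to 9 without a filter (13.5% to 15.7%). It went to 1 with the stricter filter (2149 to 2346 of 6247) or only the embryos compared (1500 to 2117 of 3623 to 4861). It went to 0 with thinning (895 to 930 of 2013) and to 2 with thinning on the genes of the full depth (1553 to 1740 of 5940). Aqp9 was no longer called across the pools after thinning, at -0.52 (adjusted p 0.272, or 0.49 without a filter). Aqp11 became called with thinning (2.04), the replicate block (1.24), DESeq2's size factors (1.27) and DESeq2 (1.30), and without any of 6 single embryos (1C replicates 1 and 3, 2CB replicate 3, 4CB replicates 2 and 5, 8CB replicate 3).

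Leaving out each embryo in turn gave 1 to 2 members among the 4 stages (2 without 2CB replicate 5 or 8CB replicate 6), 2 to 3 across the pools, 3 to 6 over the pairs and 0 within the pools. Fold changes across the pools ranged from 0.30 to 1.33 for Atp1b2, -0.40 to -0.16 for Atp1b3, -0.69 to -0.38 for Aqp3 (called without 2CB replicate 2, adjusted p 0.0925), -0.88 to -0.62 for Aqp9 and 1.01 to 1.38 for Aqp11. Within the pools signs near 0 turned: for 8CB against 1C, Atp1b1 ranged from -0.43 to 0.51 and Aqp9 from -0.05 to 0.34, with Atp1b1 at -1.08 and Aqp11 at 0.68 after thinning. For 4CB against 2CB, Atp1b3 ranged from -0.34 to 0.08 and Aqp9 from -0.12 to 0.38, Atp1b2 stood at -0.02 after thinning (0.46 at full depth) and Aqp9 at -0.08 without a filter. The share of Atp1b1 across the pools ranged from 18.5 to 21.6 points. For 8CB against 1C it ranged from -1.52 to 1.5, with -2.80 after thinning and -3.19 with at least 30 UMIs. Of the 12 genes most like a member, 11 were shared with a prior count of 0.5 and 5 with Spearman's rho.

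Embryos with the same replicate number were not paired (36 pairs, mean r -0.0156, 3 over 0.1), and the replicate block changed no call of the members that passed the filter. In the fits without a filter Aqp9 was no longer called across the pools with the block, and Aqp11 was called there and was no longer called for 8CB against 4CB (-1.96, adjusted p 0.108). Aqp9 passed the threshold for 8CB against 2CB in 10 alternatives, 7 of them with 1 embryo left out, at 0.82 to 1.13. In 1 random thinning the mean of Atp1b3 was 65.7 CPM in 8CB and 122 CPM in 1C embryos (exact permutation test, p = 0.00649), a difference the full counts did not show. The causes of the shifts under the other alternatives were not tested. At depths down to 70941 UMIs, members at a few CPM give 0 or 1 UMI per embryo.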
